A study of Mus musculus with 12 samples.

Results

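The genes described here move sodium, chloride and bicarbonate across the lining of the intestine, or support that movement. They are Slc9a3, Slc9a2, Nherf1, Cftr, Slc26a3, Slc26a6, Slc4a4, Atp1b1 and Car4. They were chosen by name, though with earlier results of these data known. All 9 were found among the 55416 genes of the duodenum table, 8 under these symbols and Nherf1 under its older symbol Slc9a3r1. Levels are given as TPM, a relative transcript abundance that is corrected for transcript length. A gene was tested where its mean reached 1 TPM in the CORT or the vehicle group, which held for all 9 genes in the duodenum and for 3 of them in the liver.

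The libraries came from male C57BL6/J mice that were 8 weeks old at the start. CORT-treated mice received corticosterone, the main glucocorticoid of rodents, at 40 mg/kg by daily subcutaneous injection for 8 weeks, and control mice (Veh) received vehicle by the same route over the same time. No transgene or mutant allele was involved, so the groups shared strain, sex, age and the daily injection. RNA of 50 mg of duodenum, labelled intestine, and of liver was sequenced with 3 CORT and 3 Veh libraries per tissue, 12 in all. The samples are labelled as biological replicates, and no label says whether a duodenum and a liver library came from the same mouse.

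Epithelial cells of the duodenum absorb sodium through sodium-hydrogen exchangers in the brush border, the apical membrane that faces the gut lumen. The proton leaves in exchange for sodium while chloride enters in exchange for bicarbonate, so that salt is absorbed and water follows. Other cells, mostly in the crypts, secrete chloride and bicarbonate through the CFTR channel, and bicarbonate protects the duodenal lining from gastric acid. The sodium pump in the basolateral membrane keeps sodium low inside the cell and so drives these steps, while carbonic anhydrases interconvert carbon dioxide and bicarbonate.

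None of the 9 genes passed the thresholds in the duodenum, which were an adjusted p of at most 0.05 and a fold change over 1.5 with limma on log2(TPM + 1). Of the 13607 genes tested there, 292 passed (2.15%), of which 167 were higher (1.23%) and 125 lower (0.919%) in CORT. At an unadjusted p under 0.05 there were 3 of the 9 (Slc26a3, Slc26a6 and Car4), against 19.2% of all genes tested. The log2 fold change was above 0 for 3 of the 9 genes and below 0 for 6, with a median of -0.21 against -0.01 over all genes tested. The 3 CORT and the 3 Veh libraries did not overlap for 4 of the 9 genes, 1 higher (Slc26a3) and 3 lower (Slc26a6, Atp1b1 and Car4) in CORT. Among all genes tested, 26.4% had groups that did not overlap, 12.2% higher and 14.3% lower.

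The treatment and the tissue were checked first. Fkbp5, a co-chaperone induced by glucocorticoids, was 19.7-fold higher in CORT duodenum (adjusted p = 0.0045, limma) and 18.8-fold higher in CORT liver (adjusted p = 0.00178, limma). Tsc22d3, another gene that glucocorticoids induce, rose by 2.01 on the log2 scale in the duodenum (adjusted p = 0.0185, limma, lost without CORT1, CORT2 or Veh2) and stood 1.92 higher in the liver without passing (adjusted p = 0.0623, limma). Summed over 10 markers of absorptive enterocytes, the level in the duodenum was 44625 to 48216 TPM in CORT and 25010 to 37721 TPM in Veh. This sum was mostly Apoa4 (means of 19837 TPM in CORT and 9591 TPM in Veh) and Fabp1 (13398 and 8084 TPM), and the log2 fold changes of the 10 markers were above 0 for 6 and below 0 for 4 (Vil1, Alpi, Anpep and Sis). The sum of 6 hepatocyte markers was 10.5 to 29.5 TPM in the duodenum and 105038 to 130784 TPM in the liver. The sum of 24 pancreatic acinar markers was 244 TPM in the duodenum library Veh1 and 252 to 456 TPM in the CORT libraries, but 38624 TPM in Veh2 and 30414 TPM in Veh3. Tff2, a marker of the mucous Brunner glands, was also higher in Veh2 and Veh3 (144 and 145 TPM) than in the other 4 libraries (0 to 0.76 TPM). The other Brunner marker in the table, Egf, was at 0.16 to 0.99 TPM with overlapping groups, so this excess rests on Tff2. Of the marker lists, 1 of 10 enterocyte genes passed the thresholds (Apob, higher), and 0 of 7 crypt, 0 of 6 goblet, 0 of 6 smooth muscle, 0 of 5 immune and 0 of 23 acinar genes tested did. At an unadjusted p under 0.05 these counts were 5, 0, 1, 3, 1 and 21. In pieces of whole tissue, fewer cells of a type and less RNA per cell cannot be told apart.

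**Figure D1:**
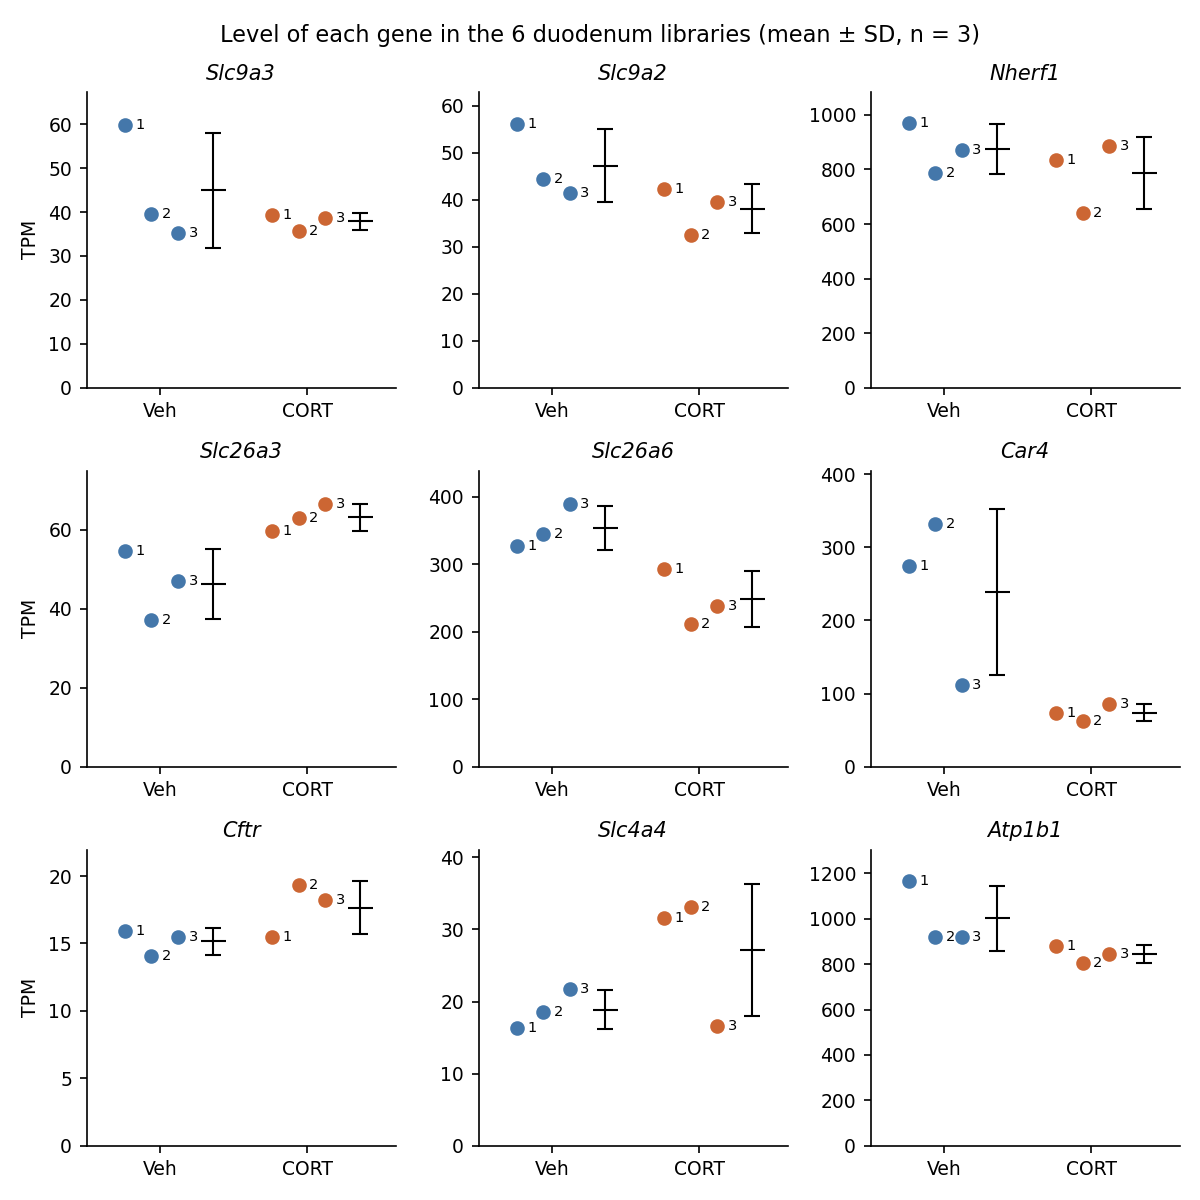
Level of each of the 9 genes in TPM (linear axes from 0) in the 6 duodenum libraries, with a point and replicate number per library and the mean ± SD (n = 3) to the right of each group. The CORT points lie above the Veh points for Slc26a3 and below them for Slc26a6, Car4 and Atp1b1, while the groups overlap for the other 5 genes.

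In Veh duodenum the 9 genes spanned levels from 15.2 to 1002 TPM. Atp1b1, the beta subunit of the sodium pump, and Nherf1, a scaffold of the brush border, stood at the top with means of 1002 and 875 TPM, and their ranges overlapped. The apical anion exchanger Slc26a6 followed at 353 TPM and the membrane-bound carbonic anhydrase Car4 at 239 TPM, again with overlapping ranges. Slc9a2, Slc26a3 and Slc9a3 formed a group at 47.3, 46.3 and 44.9 TPM whose ranges overlapped each other. Slc4a4 at 18.9 TPM and Cftr at 15.2 TPM were the lowest, and their ranges did not overlap. In CORT duodenum the order was the same except that Slc26a3, at 63.2 TPM, stood above Slc9a2 and Slc9a3 at 38.1 and 37.8 TPM without overlap, and Car4 at 73.7 TPM had come down to the range of Slc26a3.

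The sodium-hydrogen exchangers were examined first among the members. Slc9a3, the main exchanger for sodium absorption in the brush border, stood at 39.3, 35.7 and 38.6 TPM in CORT1 to CORT3 and at 59.8, 39.6 and 35.3 TPM in Veh1 to Veh3. Its means were 37.8 ± 1.89 TPM in CORT and 44.9 ± 13.1 TPM in Veh (SD, n = 3). Veh1 alone was high, and the other 5 libraries lay within a narrow range. On the log2 scale the difference was -0.21 (SE 0.20, 95% confidence interval -0.68 to 0.27, adjusted p = 0.606 with limma), and without Veh1 it was 0.016.

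Slc9a2, a related brush border exchanger, stood at 42.4, 32.5 and 39.6 TPM in CORT and at 56.1, 44.5 and 41.4 TPM in Veh. The groups overlapped by 1 library each, CORT1 lying above Veh3. Slc9a2 had a log2 fold change of -0.30 (95% confidence interval -0.69 to 0.09, adjusted p = 0.375 with limma). The ratio of Slc9a3 to Slc9a2 was 0.926, 1.10 and 0.974 in CORT and 1.07, 0.891 and 0.853 in Veh, so the balance of the exchangers overlapped between groups (exact permutation test, two-sided, p = 0.5).

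Nherf1 encodes a scaffold with PDZ domains that ties Slc9a3 and Cftr to the cytoskeleton below the brush border. It stood at 835, 640 and 887 TPM in CORT and at 969, 785 and 871 TPM in Veh. The CORT values spanned those of Veh2 and Veh3, and the means of 787 ± 130 and 875 ± 91.9 TPM (SD, n = 3) differed by less than either SD. Its log2 fold change was -0.16 (95% confidence interval -0.57 to 0.24, adjusted p = 0.636 with limma), and it ranged from -0.25 without CORT3 to -0.019 without CORT2. For these 3 genes the intervals include no difference, and their lower ends lie between -0.69 and -0.57, close to or past the 1.5-fold limit, which is 0.585 on the log2 scale.

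The chloride-bicarbonate exchangers of the brush border stood on opposite sides of their controls. Slc26a3, which takes up chloride and is most abundant in the large intestine, stood at 59.8, 63.2 and 66.7 TPM in CORT and at 54.8, 37.1 and 46.9 TPM in Veh. Every CORT library was above every Veh library. The log2 fold change was 0.46 (1.37-fold higher, SE 0.16, 95% confidence interval 0.07 to 0.84, adjusted p = 0.192 with limma).

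Slc26a6, the more abundant anion exchanger of the upper small intestine, stood at 293, 212 and 238 TPM in CORT and at 327, 344 and 389 TPM in Veh. Here every CORT library was below every Veh library. This exchanger had a log2 fold change of -0.52 (1.43-fold lower, SE 0.16, 95% confidence interval -0.90 to -0.14, adjusted p = 0.153 with limma). Neither exchanger passed the adjusted threshold or the 1.5-fold limit, though both had an unadjusted p under 0.05. With single libraries left out, the log2 fold change lay between 0.31 and 0.59 for Slc26a3 and between -0.65 and -0.41 for Slc26a6.

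The ratio of Slc26a3 to Slc26a6 puts both differences in one value per library. It was 0.204, 0.298 and 0.280 in CORT and 0.168, 0.108 and 0.121 in Veh. The groups did not overlap, and the ratio was 1.98-fold higher in CORT (exact permutation test, two-sided, p = 0.1, the smallest p that 3 against 3 can give, and 0.225 after adjustment over 9 ratios). Each exchanger alone had already separated the groups, in opposite directions. The ratio therefore had to separate them too, and its p adds no support. Veh1, the Veh library low in acinar markers, lay nearest to CORT at 0.168. The 9 ratios, not all of which are reported, were chosen after the values of the genes had been seen.

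Car4, a carbonic anhydrase anchored on the outer face of the brush border, had the largest difference of the 9 genes. Its level was 73.9, 61.8 and 85.4 TPM in CORT and 274, 331 and 111 TPM in Veh. The CORT libraries were all low and close together, whereas Veh3 stood much nearer to them than Veh1 and Veh2 did. The means were 73.7 ± 11.8 TPM in CORT and 239 ± 114 TPM in Veh (SD, n = 3). Its log2 fold change of -1.55 (2.93-fold lower, SE 0.39, 95% confidence interval -2.48 to -0.63) did not pass the adjusted threshold (adjusted p = 0.0986 with limma). Car4 was the only 1 of the 9 genes with an unadjusted p under 0.05 and a fold change over 1.5, which 10.3% of all genes tested had. Without Veh3 it was -2.03 and passed (adjusted p = 0.0223 with limma). Among the Veh libraries, Car4 was high in Veh1, which has no acinar excess, and in Veh2, which has the largest, and lower in Veh3. Relative to Vil1, which encodes the microvillus protein villin, Car4 stood at 0.0652, 0.0737 and 0.0766 in CORT and at 0.191, 0.346 and 0.105 in Veh (2.66-fold lower, exact permutation test, two-sided, p = 0.1, adjusted 0.225).

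**Figure D2:**
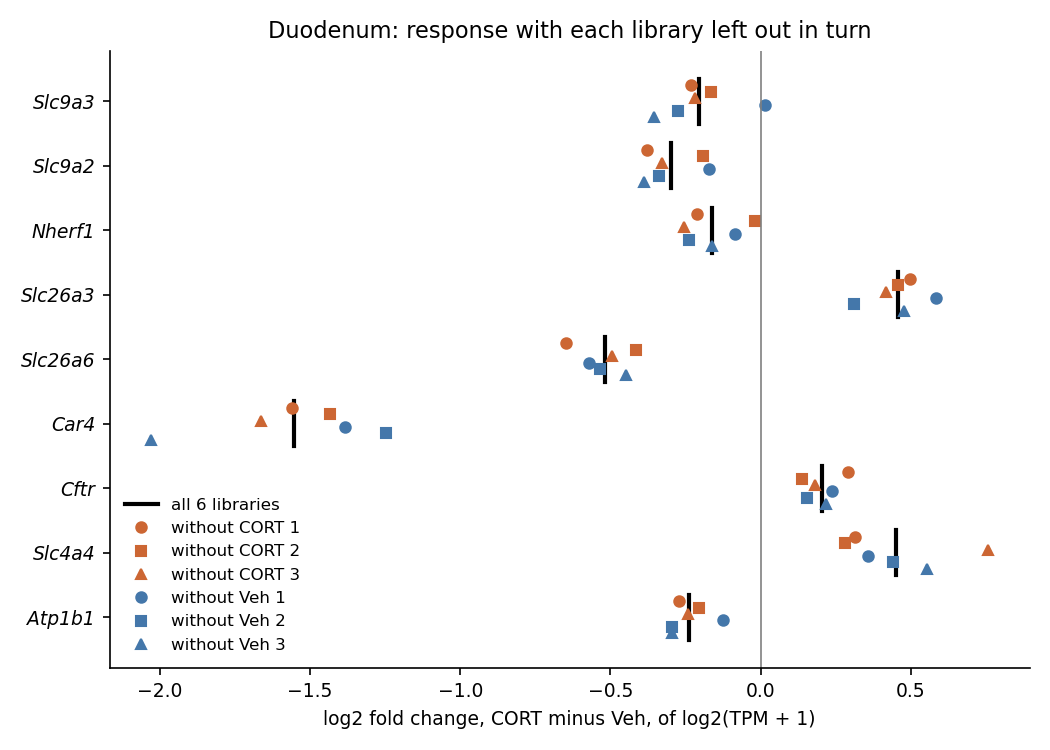
Log2 fold change (CORT minus Veh, of log2(TPM + 1)) of the 9 genes in the duodenum with all 6 libraries (black bars) and with each library left out in turn (symbols). Car4 lies furthest to the left throughout, from -2.03 without Veh3 to -1.25 without Veh2, and Slc9a3 crosses 0 without Veh1.

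Cftr, the apical anion channel of secreting cells, stood at 15.5, 19.3 and 18.2 TPM in CORT and at 16.0, 14.1 and 15.5 TPM in Veh. CORT2 and CORT3 were above all Veh libraries, and CORT1 was within their range. Cftr had a log2 fold change of 0.20 (95% confidence interval -0.11 to 0.51, adjusted p = 0.438 with limma), and the upper end of the interval was below the 1.5-fold limit.

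Slc4a4, the basolateral sodium-bicarbonate cotransporter that loads cells with bicarbonate, stood at 31.7, 33.2 and 16.7 TPM in CORT and at 16.4, 18.5 and 21.8 TPM in Veh. CORT1 and CORT2 were above every Veh library, but CORT3 lay at the bottom of the Veh range. Its log2 fold change was 0.45 (95% confidence interval -0.18 to 1.08, adjusted p = 0.408 with limma) and ranged from 0.28 without CORT2 and 0.31 without CORT1 to 0.76 without CORT3, short of the threshold in each (adjusted p from 0.11 to 0.671). Cftr and Slc4a4 are also expressed in the pancreas, and Veh2 and Veh3, with the acinar excess, did not stand together above Veh1 for Cftr, whereas Slc4a4 was lower in Veh1 (16.4 TPM) than in Veh2 and Veh3. With the acinar genes removed and the rest rescaled, the log2 fold changes were 0.17 for Cftr and 0.42 for Slc4a4. This rescaling multiplies all remaining genes of a library by the same factor, so it cannot take out Cftr or Slc4a4 transcripts of pancreatic cells. The part of pancreatic tissue in their values was not tested.

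Atp1b1, which the sodium pump needs to reach the membrane, stood at 882, 805 and 847 TPM in CORT and at 1167, 921 and 919 TPM in Veh. Every CORT library was below every Veh library, although CORT1 and Veh3 were close, and Veh1 was apart from the other Veh libraries. Atp1b1 had a log2 fold change of -0.24 (95% confidence interval -0.58 to 0.11, adjusted p = 0.419 with limma), and without Veh1 it was -0.12.

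The excess of acinar RNA in Veh2 and Veh3 lowers the TPM of every other gene in them, since TPM sum to nearly the same total per library. With the 24 acinar genes removed and the rest rescaled, 0 of the 9 genes passed and each log2 fold change was slightly lower, such as -1.59 for Car4 (adjusted p = 0.0882 with limma), -0.55 for Slc26a6 and 0.42 for Slc26a3. Against Veh1 alone, under the assumption that it varies like the CORT libraries, the values were -0.65 for Slc9a3, -0.55 for Slc9a2, -0.31 for Nherf1, 0.13 for Cftr, 0.20 for Slc26a3, -0.41 for Slc26a6, 0.64 for Slc4a4, -0.47 for Atp1b1 and -1.89 for Car4. With 1 Veh library few genes of any kind passed, so a gene that does not pass there says little. All 9 signs were those of the comparison with 3 Veh libraries. That comparison shares Veh1 and all CORT libraries, so the agreement in sign is in part built in. For Slc9a3, Slc9a2, Nherf1, Cftr, Slc26a3 and Atp1b1 these values differed from the others by over 1.5 times. The enterocyte markers differed in sign, and their sum was higher in CORT mainly through Apoa4 and Fabp1. Relative to Vil1, which had a log2 fold change of -0.16 (adjusted p = 0.706 with limma), the Slc26a6 ratio overlapped between groups (0.259, 0.253 and 0.213 in CORT, 0.228, 0.359 and 0.365 in Veh, exact permutation test, two-sided, p = 0.3), while the Slc26a3 ratio did not overlap (0.0527, 0.0753 and 0.0598 in CORT, 0.0381, 0.0387 and 0.0440 in Veh, p = 0.1 in the same exact test, adjusted 0.225). The Atp1b1 ratio to Vil1 also overlapped, at 0.778, 0.959 and 0.760 in CORT and 0.813, 0.961 and 0.862 in Veh (p = 0.5, same exact test). For Slc26a6 relative to Vil1, Veh1 lay inside the CORT range, and only Veh2 and Veh3, with the acinar excess, lay above it. Vil1 was the only enterocyte marker used in these ratios. Of the 10 markers, 6 had a log2 fold change above 0, from 0.47 for Mttp to 1.64 for Apob, and 4 were below 0. Those 6 values were above the 0.46 of Slc26a3, so its ratio to Vil1 does not stand for its ratio to enterocyte markers in general. The part of enterocyte abundance or of pancreatic tissue in these differences was not tested.

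The liver served as a comparison tissue, in which hepatocytes and bile duct cells handle bicarbonate without a brush border of the intestinal kind. Of 11699 genes tested in the liver, 810 passed the same thresholds (6.92%), 4.91% higher and 2.01% lower, and 1 of the 3 members tested passed. All 3 had an unadjusted p under 0.05, as did 25.9% of the liver genes, and 2 of them also a fold change over 1.5, as did 15.5%. Slc9a3, Slc9a2, Cftr, Slc26a3 and Car4 were listed at 0.09 TPM or less in every liver library, and Slc26a6 at 0.66 to 1.03 TPM, so these 6 were below the minimum for testing. Markers of bile duct cells summed to 20.4 to 56.1 TPM in the liver, mostly through Spp1 (means of 31.5 TPM in CORT and 43.5 TPM in Veh).

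Slc4a4 stood at 13.3, 17.5 and 8.04 TPM in CORT liver and at 5.42, 5.25 and 4.96 TPM in Veh liver. All CORT libraries were above all Veh libraries, with CORT3 the lowest of them. Slc4a4 thus rose in the liver, with a log2 fold change of 1.11 (2.15-fold higher, SE 0.25, 95% confidence interval 0.51 to 1.71, adjusted p = 0.0472 with limma). The call was narrow: it was lost in 5 of 6 fits that left out a library and remained only without CORT3 (1.39, adjusted p = 0.0145), and it was lost with median-ratio scaling (1.02, adjusted p = 0.0561).

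Atp1b1 stood at 83.0, 37.3 and 115 TPM in CORT liver and at 32.2, 42.9 and 29.0 TPM in Veh liver. CORT1 and CORT3 were high, and CORT2 fell inside the Veh range. Its log2 fold change of 1.03 (SE 0.39, 95% confidence interval 0.10 to 1.96, adjusted p = 0.157 with limma) passed only without CORT2, at 1.49 (adjusted p = 0.0293). Nherf1 was 119, 143 and 131 TPM in CORT liver and 167, 192 and 160 TPM in Veh liver. Its groups did not overlap, as was the case for 32.2% of liver genes, and its log2 fold change of -0.40 (SE 0.13, adjusted p = 0.118 with limma) did not pass.

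**Figure D3:**
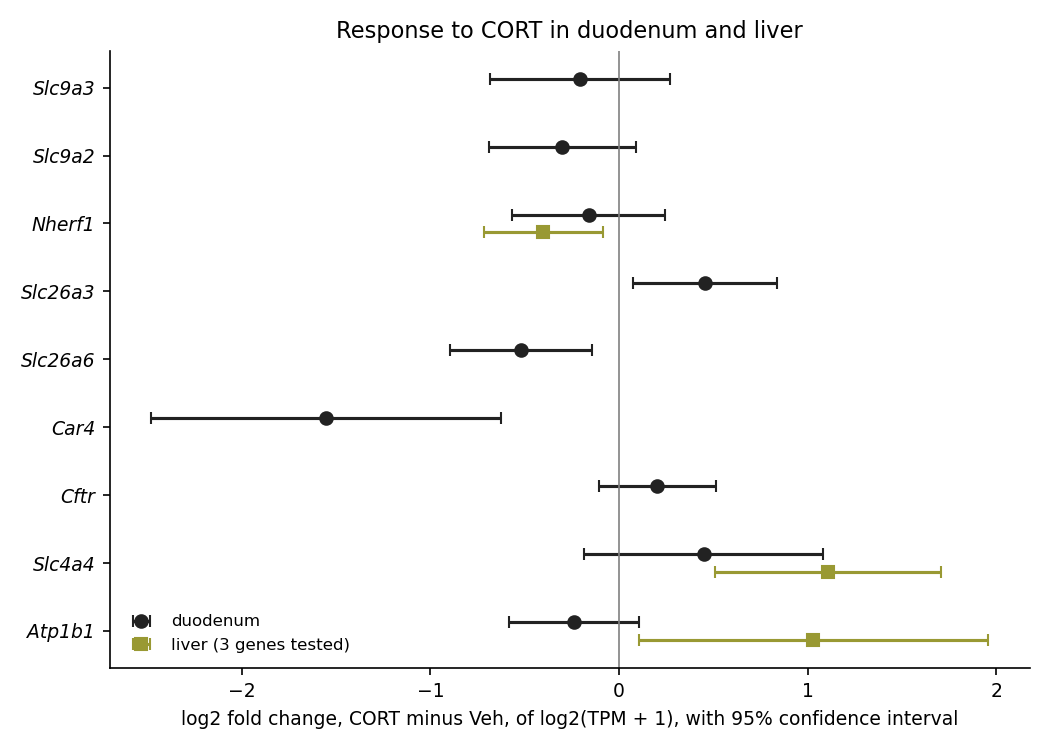
Log2 fold change (CORT minus Veh, of log2(TPM + 1)) with its 95% confidence interval for the 9 genes in the duodenum (circles) and the 3 tested in the liver (squares). Atp1b1 lies at -0.24 in the duodenum and at 1.03 in the liver, and Slc4a4 lies above 0 in both.

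A fit of all 12 libraries tested whether the response differed between tissues, and 534 of 14806 genes passed (3.61%), none of the 9 among them. The difference, duodenum minus liver, was -1.27 for Atp1b1 (SE 0.45, adjusted p = 0.164 with limma), -0.66 for Slc4a4 (adjusted p = 0.423) and 0.24 for Nherf1 (adjusted p = 0.589). Without the liver library CORT2 the difference for Atp1b1 was -1.72 (adjusted p = 0.00847), so this call rests on 1 library. For Car4 it was -1.49 (adjusted p = 0.099 with limma), and without the duodenum library Veh3 it was -1.97 and passed (adjusted p = 0.00169). Car4 is near 0 in the liver, so its difference is nearly the duodenum change alone and not a comparison of 2 responses. The fit uses 1 spread per gene over both tissues, to which such liver values add little. In the duodenum alone the adjusted p of Car4 without Veh3 was higher, at 0.0223, while with all libraries it was 0.0986 (both limma). Duodenum and liver libraries were treated as independent in this fit, although they may come from the same mice.

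The remaining genes of ion transport were taken from 6 lists of 53 genes, of which 43 could be tested in the duodenum. Of these 43, 2 rose (Guca2b and Car14) and 1 fell (Slc4a7), which is to be read beside the 2.15% of all genes that passed. Car14 reached the minimum for testing only through the CORT group, where it was high, so its call depends on that filter. The median log2 fold change over the 43 was 0.01. By list, 0 of 3 other sodium entry genes, 1 of 18 regulators of Slc9a3 and Cftr, 0 of 6 genes of chloride secretion and its potassium channels, 1 of 4 other bicarbonate and anion transporters, 1 of 5 other carbonic anhydrases and 0 of 7 other sodium pump genes passed. At an unadjusted p under 0.05 these counts were 1, 6, 2, 3, 3 and 0, or 15 of 43, beside 19.2% of all genes tested. The beta and gamma subunits of the epithelial sodium channel, Scnn1b and Scnn1g, were at 0.05 TPM or less in every duodenum library.

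**Figure D4:**
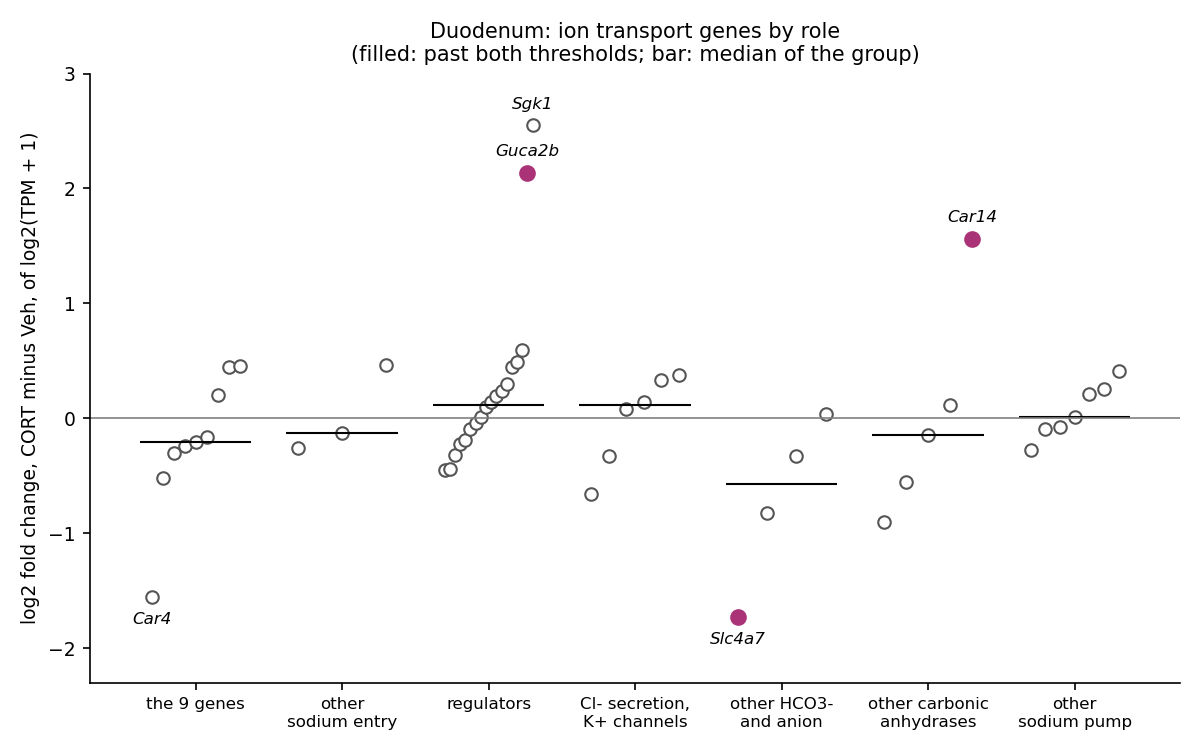
Log2 fold change (CORT minus Veh, of log2(TPM + 1)) in the duodenum for the 9 genes and for the 6 lists of other ion transport genes, with 1 point per gene tested, filled where it passed both thresholds, and a bar at each median. Guca2b and Car14 lie above and Slc4a7 below all other points of their lists except Sgk1, which lies at 2.55 but did not pass.

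Guca2b encodes uroguanylin, a peptide released into the gut lumen that acts on the receptor guanylate cyclase C and is known to inhibit Slc9a3 and to open Cftr. It stood at 10795, 8218 and 13237 TPM in CORT and at 3160, 1880 and 2325 TPM in Veh. Every CORT library was well above every Veh library. Guca2b rose by 2.14 on the log2 scale (4.40-fold, SE 0.26, adjusted p = 0.0181 with limma), though of 6 fits with a library left out (1.96 to 2.33) it passed only without CORT2 and without Veh1. Against Veh1 alone it was 1.74 (adjusted p = 0.307).

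The related peptide guanylin and the shared receptor were measured too. Guca2a (guanylin) had a log2 fold change of 0.30 (adjusted p = 0.517 with limma). Gucy2c (the receptor) stood at 211, 162 and 208 TPM in CORT and at 150, 107 and 127 TPM in Veh, a log2 fold change of 0.60 with groups that did not overlap (adjusted p = 0.139). Guca2b passed, while its receptor and its relative did not, and the differences among the 3 were not tested.

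Slc4a7, an electroneutral sodium-bicarbonate cotransporter, stood at 17.9, 19.99 and 14.5 TPM in CORT and at 38.4, 64.1 and 86.6 TPM in Veh. The CORT libraries were all low, and the Veh libraries were spread, with Veh2 and Veh3, those of the acinar excess, above Veh1. It fell by 1.73 on the log2 scale (3.31-fold, SE 0.29, adjusted p = 0.0373 with limma). Against Veh1 alone the log2 fold change was -1.10 (adjusted p = 0.304), and of 6 fits with a library left out it passed only without Veh1. The part of pancreatic or Brunner tissue in the higher values of Veh2 and Veh3 was not tested.

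Car14, another membrane-bound carbonic anhydrase, stood at 2.98, 2.63 and 4.01 TPM in CORT and at 0.39, 0.68 and 0.20 TPM in Veh. Only its CORT mean reached the minimum of 1 TPM, so Car14 entered the test through the group where it was high. With no filter on low values its adjusted p was 0.066 with limma. It was low in every library, and it rose by 1.56 on the log2 scale of TPM + 1, or by 2.75 with a pseudocount of 0.1, with means of 3.21 TPM in CORT and 0.423 TPM in Veh (SE 0.22, adjusted p = 0.0253 with limma, and with a library left out past the threshold only without Veh1). In the liver, where it was more abundant, Car14 also rose, from 18.0, 15.9 and 25.0 TPM in Veh to 44.0, 34.6 and 36.9 TPM in CORT (log2 fold change 0.95, adjusted p = 0.0336), a call lost with median-ratio scaling, with no filter on low values and in 5 of 6 fits with a library left out, all but that without Veh3. It was thus higher in CORT where Car4 was lower, but at a far lower level. The cytosolic Car2 stood at 43.9, 38.7 and 31.7 TPM in CORT and at 48.8, 87.1 and 86.4 TPM in Veh (log2 fold change -0.91, adjusted p = 0.124), with Veh2 and Veh3 again above Veh1.

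**Figure D5:**
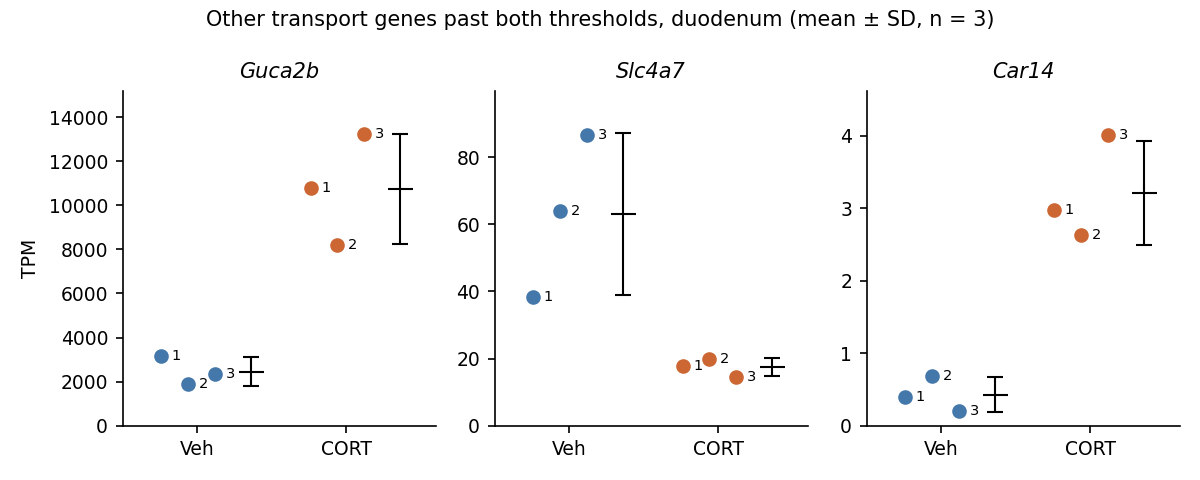
Level in TPM (linear axes from 0) of Guca2b, Slc4a7 and Car14 in the 6 duodenum libraries, with a point and replicate number per library and the mean ± SD (n = 3) to the right of each group. Guca2b and Car14 are higher and Slc4a7 is lower in each CORT library than in any Veh library.

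Sgk1, a kinase induced by glucocorticoids that acts on Slc9a3 through Nherf2 and on sodium channels, was singled out after its values were seen. It stood at 643, 525 and 365 TPM in CORT and at 61.0, 49.4 and 197 TPM in Veh. Veh3 was well above the other Veh libraries, though still below all CORT libraries. Its log2 fold change of 2.55 did not pass (adjusted p = 0.0596 with limma), and without Veh3 it was 3.16 and passed (adjusted p = 0.0148). Veh3 was thus the Veh library nearest to CORT for both Sgk1 and Car4, but the furthest from CORT for Slc4a7 and Slc26a6.

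The genes most like Slc9a3 across the 6 duodenum libraries were found among 6657 genes that averaged 10 TPM or more. They were Txn1 (Pearson r = 0.981 of log2 values), Arf4 (0.975) and Slc3a1 (0.972), each with its highest value in Veh1. Those most like Cftr were Gtpbp4 (0.997), Defa34 (0.988) and A1cf (0.988), each with its highest value in CORT2, and Defa34 belongs to a family of near-identical alpha-defensin genes whose reads may be split among its members. These are descriptions over 6 libraries that share 2 treatment groups and the difference in acinar RNA.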

How the data were processed

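Duodenum and liver RNA was sequenced from TruSeq libraries with paired ends. According to the methods, SeqPrep and Sickle were used for trimming, HISAT2 for alignment, StringTie for assembly and RSEM for quantification. The authors deposited TPM for every gene in each library, without pooling replicates. The submitters' processing notes name the build GRCm39, while the annotation and tool versions are not given in the sources used here. TPM hold no read depth, so precision comes only from the 3 replicates per group. The reference tables were of another build, so no coordinates are printed, and protein sequences were not used here.

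Groups came from the sample labels. Each tissue was fitted alone as log2(TPM + 1) with limma 3.58.1 in R 4.3.3 (eBayes with a trend, treatment as the only term), over genes that averaged 1 TPM or more in CORT or Veh, with Benjamini-Hochberg adjustment over all of them. Adjusted p-values of genes are limma's. This scale understates the change of low genes. The thresholds combine the adjusted p of the authors' methods, which used DESeq2, with the fold change of their results. Their results text does not call the p adjusted, and their counts of passing genes are larger than those given here. A fit of 12 libraries tested treatment by tissue. The fits were tested on simulated data.

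The genes, lists and tests were chosen with earlier results of these data known. Named were the 9 genes, other listed transport genes past the thresholds in the duodenum, the controls Fkbp5 and Tsc22d3, and the 3 genes most like Slc9a3 and Cftr. Others were named after their values had been seen. Alternatives were a pseudocount of 0.1, no filter, no limit on fold, unadjusted p, median-ratio scaling (the kind of size factor used for counts), no trend, a replicate block, removal of 24 acinar genes, comparison with Veh1 alone, and leaving out each library.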

Additional observations from a re-analysis of the deposited data

Results flagged for a closer look

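For 5 other transport genes the response to CORT differed between duodenum and liver in the fit of all 12 libraries, which 3.61% of 14806 genes did. This fit treats duodenum and liver libraries as independent, although they may come from the same mice. The difference, duodenum minus liver on the log2 scale, was 2.19 for the uroguanylin gene Guca2b (adjusted p = 0.00222 with limma). Guca2b was at 0 to 0.12 TPM in the liver, so its difference is nearly the duodenum change alone and not a comparison of 2 responses. The difference was 1.13 for Scnn1a, the alpha subunit of the epithelial sodium channel (adjusted p = 0.0271, and 0.0508 with no filter on low values). Scnn1a stood at 7.84, 6.08 and 8.67 TPM in CORT and at 4.40, 6.40 and 4.72 TPM in Veh duodenum (log2 fold change 0.47, adjusted p = 0.23), and it fell in the liver by 0.66 (adjusted p = 0.0445), a call that was lost in all 6 fits with a liver library left out. It was -1.46 for Nedd4l, a ubiquitin ligase that removes sodium channels from the membrane (adjusted p = 0.00813). Nedd4l stood at 22.1, 17.4 and 21.9 TPM in CORT and at 33.7, 24.4 and 27.1 TPM in Veh duodenum (log2 fold change -0.45, adjusted p = 0.205), and it rose in the liver by 1.01 (adjusted p = 0.0183), from 11.95, 14.0 and 16.0 TPM to 33.1, 30.0 and 24.6 TPM, a call kept in 3 of 6 such fits (without CORT3, Veh2 or Veh3). It was 1.15 for Wnk4, a kinase that regulates ion transport (adjusted p = 0.0316, and 0.0692 with no filter), whose liver levels were 1.17 TPM or less, and with a pseudocount of 0.1 it was 2.25. It was -1.95 for Slc4a7 (adjusted p = 0.0124), which was at 0.96 to 1.65 TPM in the liver.

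Guca2b, Nedd4l and Slc4a7 passed in all 12 fits that left out a library, Scnn1a in 5 (without CORT2 or Veh2 of the duodenum, or CORT2, Veh1 or Veh2 of the liver) and Wnk4 in 2 (without CORT2 or Veh1 of the duodenum). For Guca2b, near 0 in the liver, leaving out a liver library can hardly change the result. The fit of all 12 libraries uses 1 spread per gene over both tissues, to which such liver values add little. The adjusted p of Guca2b was 0.00222 there and 0.0181 in the duodenum alone (both limma). In the fits of the duodenum alone, Guca2b passed in 2 of 6 and Slc4a7 in 1 of 6.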

How the results depend on the processing

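None of the 9 genes passed the thresholds in the duodenum under 8 of the 10 planned kinds of alternative, and Car4 passed at an unadjusted p (1 gene) and without Veh3 (0 to 1 with a library left out). Calls over all genes were 292 in the duodenum and 810 in the liver, against 52 and 283 with no filter, 62 and 307 with the replicate block, 1395 and 1808 at an unadjusted p, 66 to 237 and 247 to 831 with a library left out, and 10 in the duodenum against Veh1 alone. Leaving out any library but Veh1 in the duodenum, or any but Veh2 in the liver, cut the count by over 1.5 times. The 3 calls among other transport genes became 0 with no filter, 1 with the replicate block (Guca2b), 8 at an unadjusted p, 0 against Veh1 alone and 0 to 4 with a library left out. The liver call of Slc4a4 was lost, leaving 0, with no filter, the replicate block, median-ratio scaling or no trend. The liver count was 2 at an unadjusted p (Slc4a4 and Atp1b1) and 0 to 1 with a library left out. The duodenum calls of Slc4a7 (adjusted p = 0.0947), Car14 (0.0946) and Tsc22d3 (0.0774), the difference between tissues for Scnn1a (0.0589) and the liver call of Car14 were lost with the replicate block, and those of Guca2b (0.0896), Slc4a7 (0.0977), Car14 (0.066) and Tsc22d3 (0.0554) in the duodenum with no filter. Median-ratio scaling gave 543 higher and 468 lower liver genes, against 575 and 235. Calls of treatment by tissue, 534 in all, were 289 to 626 with a library left out, and moved by over 1.5 times without the duodenum Veh3, the liver CORT1 or the liver Veh3. Slc9a3 turned from -0.21 to 0.016 without Veh1 (range -0.36 to 0.016 in both the duodenum and the treatment by tissue fits), and the difference between tissues for Cftr turned from 0.16 to -0.10 with a pseudocount of 0.1. The causes of these shifts were not tested. Same-numbered CORT and Veh libraries correlated at -0.12 to 0.07 in their deviations from the group means, and not each best with its own number, so the numbers were not taken as pairs. TPM give no depth, so what counting error adds is unknown, and with 3 libraries a group an exact test cannot fall below p = 0.1.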
